A study of Cricetulus griseus with 6 samples.

Results

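The cytosolic chaperone and heat shock genes of CHO-T cells were described as a list of 36 gene symbols. It holds the heat shock factor *Hsf1*, subunits of the chaperonin TRiC and of prefoldin, cytosolic HSP70, HSP110, HSP90 and small HSP genes with their co-chaperones, and chaperones of the mitochondrial matrix. Members were taken by gene symbol, with no threshold on a measured value. Of the 27873 entries in the files, 33 carried a member's symbol, each on a row of its own. *Hspe1*, *Dnajb6* and *Hspbp1* matched no row and are left out.

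The CHO-T line is a Chinese hamster ovary line with mouse *Cdh13* (T-cadherin) cDNA brought in by a retrovirus, so every library has that transgene. They were transfected with negative control siRNA (3 libraries) or with a single *Xbp1* siRNA duplex (3 libraries), and RNA was taken after 48 h. The comparison asks which genes change when *Xbp1* is silenced. Nothing in the labels says that libraries of a group came from separate cultures. The paper states in general that its results rest on 3 or more independent biological experiments unless noted, without naming these libraries. The p-values therefore measure the spread between these libraries, which may be technical.

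Proteins made in the cytosol fold with the help of HSP70 and its J-domain partners, of HSP90, and of TRiC, a ring-shaped chaperonin that receives actin and tubulin chains from prefoldin. HSF1 is the transcription factor that raises many of these genes when unfolded protein builds up in the cytosol, and it is controlled mainly at the level of the protein. XBP1, in contrast, serves the endoplasmic reticulum (ER), whose chaperones are encoded by other genes. In mitochondria, HSP60 (*Hspd1*) and mortalin (*Hspa9*) fold and import matrix proteins.

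Expression was given in FPKM (fragments scaled by exon length and by the mapped reads of the library), which is per length and so allows levels of different genes to be set side by side. Differences were tested with limma on log2(FPKM + 0.1) over the 14361 genes with a mean of at least 0.1 FPKM, and p-values were adjusted over all of them. A gene is said to have risen or fallen at an adjusted p under 0.05. *Xbp1* itself served to check the labels. Its level was 26.8 ± 1.35 FPKM in control libraries and 1.89 ± 0.440 FPKM after silencing (mean ± SD, n = 3 each). The low steps of the values gave each library a depth between 94.0% and 116% of that of control replicate 1. The summed FPKM of a library was 646651 to 666267 with control siRNA and 593487 to 600986 with *Xbp1* siRNA, so the groups did not overlap in this sum. Scaling the libraries to equal sums raised the median log2 fold change of all genes from 0.0063 to 0.14, and small differences between the siRNAs depend on that choice. The cause of the unequal sums was not tested. The 4 mesenchymal markers summed to 683 to 721 FPKM with control siRNA and to 524 to 555 FPKM with *Xbp1* siRNA, where *Vim* (80.6% of control) and *Sparc* (66.3%) fell, *Fn1* (179%) rose and *Col1a1* was listed at 0. Of the markers of ovarian granulosa cells, *Amh* had 2.69 and 2.95 FPKM and *Fshr* was listed at 0. The 4 leukocyte markers summed to at most 0.0945 FPKM in any library, and the 4 endothelial ones to at most 0.305. The 3 epithelial markers found (of 4, with *Krt18* listed at 0) summed to 1.83 to 2.16 FPKM with control siRNA and to 4.59 to 5.79 FPKM with *Xbp1* siRNA, and the part of either marker list in the results was not tested.

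The 33 members together held 0.731% to 0.757% of the summed FPKM of a control library and 0.744% to 0.763% after silencing, which overlap. Control means ran from 0.993 FPKM for *Bag2* to 639 FPKM for *Hspd1*, and the next most abundant were *Hspa8* (377 FPKM) and *Hspa9* (363 FPKM).

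With *Xbp1* siRNA, the matrix chaperones *Hspd1* and *Hspa9* and several partners of HSP70 and HSP90 were lower, while most TRiC subunits on the list and *Hspa8* differed little at the deposited scale. The lower genes were led by *Chordc1*, *Hspd1*, *Dnajc7* and *Bag3*, at 61.3% to 74.6% of the control level. The 3 genes that rose were *Cct4*, *Pfdn4* and *Hsp90aa1*, to 109% to 116% of the control level. No member reached a 2-fold change.

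Of the 33 members, 3 rose and 10 fell by limma, and 20 did not pass the test. Over all genes tested, 20.2% rose and 20.2% fell, against 9.09% and 30.3% of the members. The members are abundant genes, 32 of them with a mean of at least 10 FPKM. Among the 7458 genes at or over that level, 24.1% rose and 30.2% fell, so the share of members that fell lies at the background for their level, and the share that rose lies under it. Other scalings moved both: after quantile normalization 9 members rose (27.3%) and 7 fell (21.2%), beside 29.6% and 24.8% of genes with at least 10 FPKM, and at equal sums 11 rose (33.3%) and 5 fell (15.2%), beside 40.7% and 18.8%. At the deposited scale, among the 1063 genes with at least 100 FPKM, 44.1% fell and 19.0% rose, where 5 of the 16 members at that level fell and 3 rose. The median log2 fold change of the 33 members was −0.060, beside 0.0063 over all genes tested and −0.023 over those with at least 10 FPKM. It was 0.022 after quantile normalization and 0.075 at equal sums, where the genes with at least 10 FPKM were at 0.029 and 0.11. No member was called at an adjusted p under 0.05 with a log2 fold change of at least 1, which 2.69% of all genes were upward and 2.5% downward. At an unadjusted p under 0.05, limma gave 5 members higher and 14 lower, and 24.6% and 24.3% of all genes tested. These were also the numbers of members whose libraries did not overlap between the siRNAs, 5 higher and 14 lower, where 26.1% and 25.8% of all genes tested did so. For these 2 counts no share was taken over genes with at least 10 FPKM. At an adjusted p under 0.05, such genes fell more often than all genes (30.2% against 20.2%), so 14 lower is not to be read as an excess. In the plot of the members by library, the 3 *Xbp1* siRNA libraries of the strongly lowered genes stand together, away from the controls.

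**Figure D1:**
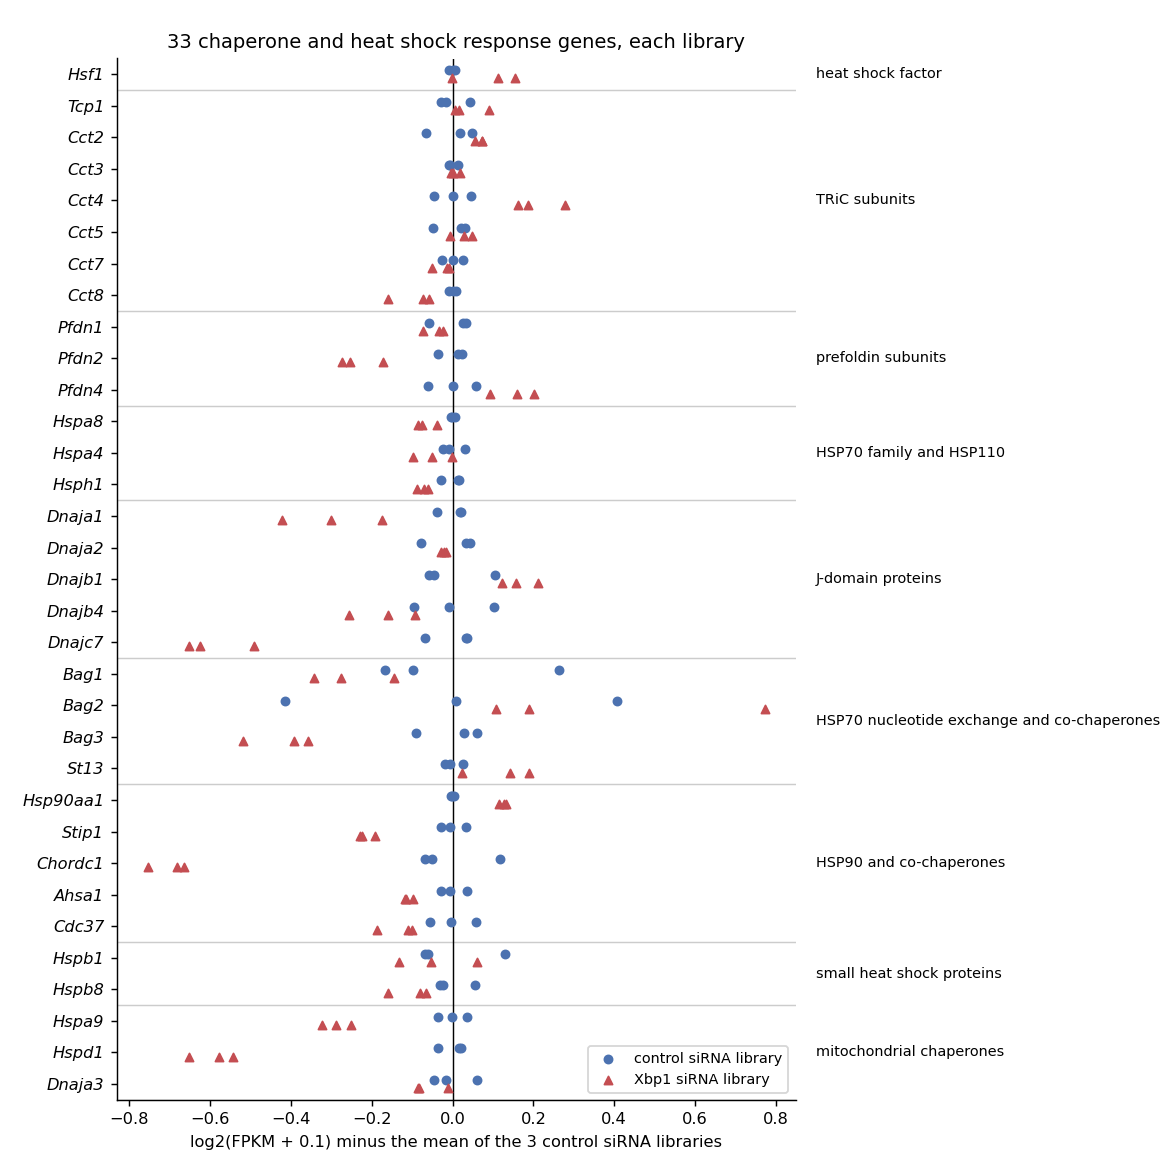
Each point is 1 library: log2(FPKM + 0.1) minus the mean of the 3 control siRNA libraries, for 33 genes ordered by role, with control siRNA as circles and Xbp1 siRNA as triangles. The Xbp1 siRNA libraries of Chordc1, Hspd1, Dnajc7 and Bag3 lie to the left of all control libraries, those of Cct4, Pfdn4 and Hsp90aa1 to the right, and most TRiC subunits overlap.

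Of the 3 mitochondrial members, *Hspd1* and *Hspa9* fell (66.7%) and *Dnaja3* did not pass. Beside this, 30.2% of genes with at least 10 FPKM and 44.1% of those with at least 100 FPKM fell. *Hspd1*, the HSP60 chaperonin of the matrix, was the most abundant member. Its values were 624, 648 and 646 FPKM with control siRNA and 407, 438 and 428 FPKM with *Xbp1* siRNA. All libraries of the second group lay under all of the first, by more than the spread within either. This is 66.4% of the control level, or −0.59 on the log2 scale (standard error 0.036, limma adjusted p = 2.28e-05). *Hspa9*, the matrix HSP70 that also drives protein import, had 354, 362 and 372 FPKM with control siRNA and 290, 305 and 297 FPKM with *Xbp1* siRNA. These groups did not overlap either, with a difference of −0.29 on the log2 scale (standard error 0.033, limma adjusted p = 4.29e-04). Both passed as lower under each scaling, by less after quantile normalization (−0.35 for *Hspd1* and −0.14 for *Hspa9*) and at equal sums (−0.46 and −0.15). The decrease of *Hspd1* was larger than that of *Hspa9* within each library: their ratio was 1.76, 1.79 and 1.74 with control siRNA and 1.40, 1.44 and 1.44 with *Xbp1* siRNA. *Dnaja3*, the J-domain partner of *Hspa9*, did not pass the test, at 49.6 ± 1.89 and 47.5 ± 1.38 FPKM (SD, n = 3), with a 95% interval of its log2 fold change from −0.16 to 0.043 and a value of 0.075 at equal sums. Summed over *Hspa9*, *Hspd1* and *Dnaja3*, the level was 1027 to 1066 FPKM with control siRNA and 746 to 790 FPKM with *Xbp1* siRNA. Of 10 other mitochondrial chaperones and proteases tested, 3 rose (30.0%, beside 24.1% of genes with at least 10 FPKM) and 7 did not pass, with a median log2 fold change of 0.016 at the deposited scale. At equal sums 5 rose and the median was 0.15. Among those that did not pass, the import factor *Timm44* (89.1% of control, −0.17 on the log2 scale, limma adjusted p = 0.0941) and the protease *Lonp1* (91.9%, adjusted p = 0.0772) were lower without overlap. The value of *Timm44* was −0.11 without *Xbp1* siRNA replicate 2 and −0.033 at equal sums. *Lonp1* passed without *Xbp1* siRNA replicate 1 (adjusted p = 0.0400), and its log2 fold change was 0.013 at equal sums and 0.032 after quantile normalization. The difference between this list and the members was not tested. *Trap1*, the HSP90 of mitochondria, had 93.1, 89.2 and 88.7 FPKM and then 121, 116 and 115 FPKM, higher by 0.38 on the log2 scale (limma adjusted p = 1.99e-04) without overlap. *Dnlz*, which keeps *Hspa9* protein soluble, had 128% of the control level (adjusted p = 0.0228), and *Clpp*, a matrix protease, had 108% (adjusted p = 0.0407). The increase of *Dnlz* did not pass without *Xbp1* siRNA replicate 2 (0.0639) or replicate 3 (0.0763), and *Clpp* passed in 1 of the 6 fits that left out a library, that without control replicate 2. These 5 genes are no members and were named after their values were seen.

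A ratio of 2 genes within a library is not changed by a scaling with 1 factor per library, such as equal sums, though quantile normalization can change it. The ratios given here were chosen after the values were seen. With 3 libraries against 3, an exact two-sided permutation test cannot give a p under 0.10, which each of the ratios printed in this text reached, since none overlapped between the siRNAs.

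On the HSP90 list of 5 genes, 1 rose and 4 fell at the deposited scale, beside 24.1% and 30.2% of genes with at least 10 FPKM. At equal sums 1 rose and 1 fell, beside 40.7% and 18.8%. *Hsp90aa1*, the heat-inducible HSP90 of the cytosol, rose slightly and with little spread, from 141, 140.0 and 140.1 FPKM to 152, 154 and 153 FPKM. That is 0.12 on the log2 scale (standard error 0.027, limma adjusted p = 0.00853), and it rose under each scaling tried, but eBayes without trend gave an adjusted p of 0.0524. All 4 co-chaperones on the list fell with the values as deposited, but *Ahsa1* and *Cdc37* did not under equal sums or quantile normalization, nor *Stip1* under equal sums. *Chordc1*, a CHORD-domain protein that binds HSP90, had the largest log2 fold change of the members. It went from 15.4, 15.6 and 17.5 FPKM to 9.54, 10.2 and 10.04 FPKM, with no overlap. By limma it fell by 0.70 on the log2 scale (standard error 0.071, adjusted p = 2.40e-04).

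*Stip1*, known as HOP, passes clients from HSP70 to HSP90. It had 77.9, 80.2 and 76.8 FPKM with control siRNA and 68.5, 67.0 and 66.8 FPKM with *Xbp1* siRNA. It fell by 0.21 on the log2 scale (limma adjusted p = 0.00199) without overlap, and with libraries scaled to equal sums the log2 fold change was −0.080 and did not pass (adjusted p = 0.107). *Ahsa1*, which stimulates the ATPase of HSP90, had 253, 242 and 246 FPKM and then 228, 231 and 228 FPKM. *Cdc37*, which brings protein kinases to HSP90, had 268, 257 and 248 FPKM and then 240, 226 and 239 FPKM. Neither gene overlapped between the siRNAs, with log2 fold changes of −0.11 (adjusted p = 0.0207) and −0.13 (adjusted p = 0.0348, limma). These small decreases did not hold under other scalings, where equal sums gave 0.025 for *Ahsa1* and 0.0022 for *Cdc37*. With a library left out, the values stayed near these (−0.12 to −0.092 for *Ahsa1* and −0.16 to −0.10 for *Cdc37*), but calls were lost. Leaving out *Xbp1* siRNA replicate 1 or 3 took the adjusted p of *Ahsa1* to 0.0583 or 0.0665, and of the 6 fits that left out 1 library, *Cdc37* passed only in that without control replicate 3 (0.0503 to 0.107 in the other fits).

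Set against *Hsp90aa1* in the same library, each of the 4 co-chaperones was lower. The ratio of *Chordc1* to *Hsp90aa1* fell from 0.115 ± 0.00852 to 0.0648 ± 0.00177 (SD, n = 3), and that of *Stip1* from 0.558 ± 0.0129 to 0.441 ± 0.00873. For *Ahsa1* the ratio was 1.76 ± 0.0360 and 1.49 ± 0.00707, and for *Cdc37* it was 1.84 ± 0.0690 and 1.54 ± 0.0588 (SD, n = 3). No library of either group overlapped in these ratios. *Hsp90aa1* itself was higher by 0.12 on the log2 scale, and each ratio holds that increase too. For *Ahsa1* and *Cdc37* the ratios changed by −0.235 and −0.258, where the genes themselves changed by −0.11 and −0.13. No other HSP90 gene was used as the denominator, so the ratios do not describe cytosolic HSP90 as a whole. Of 12 other HSP90 genes and co-chaperones tested, 3 rose (25.0%) and 5 fell (41.7%) at the deposited scale, beside the same background of 24.1% and 30.2%. At equal sums 5 rose (41.7%) and 3 fell (25.0%), beside 40.7% and 18.8%. Those that rose at the deposited scale were *Tomm34* (123% of control, limma adjusted p = 0.00237), *Cdc37l1* (119%, adjusted p = 0.00552) and *Fkbp4* (109.9%, adjusted p = 0.0192), which are no members and were named after their values were seen. *Fkbp4* did not pass without control replicate 2 (0.0636), control replicate 3 (0.0501) or *Xbp1* siRNA replicate 3 (0.0613). Of the 5 that fell, *Fkbp5* and *Cacybp* are given below. The others, also named after their values were seen, were *Ttc4* (78.5% of control, limma adjusted p = 0.00158), *Ptges3* (85.1%, adjusted p = 0.00452) and *Nudc* (87.2%, adjusted p = 0.0116).

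**Figure D2:**
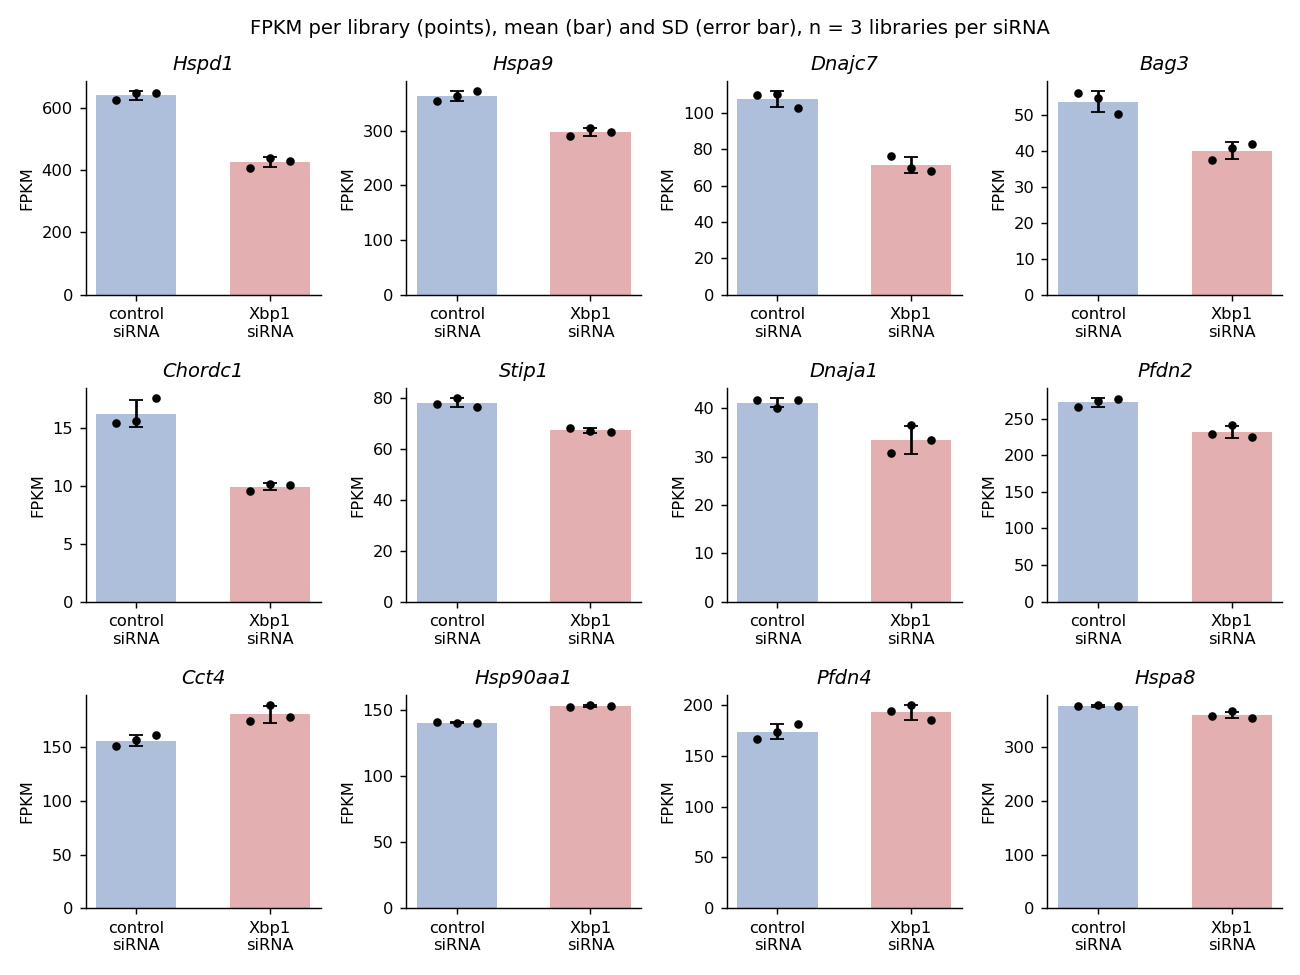
FPKM of 12 members with control siRNA and Xbp1 siRNA, where points are libraries, bars are means of 3 libraries and error bars are SD. Hspd1 falls to 66.4% of the control level and Chordc1 to 61.3%, Cct4, Hsp90aa1 and Pfdn4 are higher, and Hspa8 is nearly level, with group means of 377 and 360 FPKM.

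Among the J-domain proteins, which load clients on HSP70 and stimulate its ATPase, 2 of 5 fell (40.0%, beside 30.2% of genes with at least 10 FPKM) and 3 did not pass, and at equal sums 1 rose and 1 fell. *Dnajc7*, which has TPR repeats beside its J domain and binds HSP90 as well as HSP70, had 110.0, 110.2 and 102 FPKM with control siRNA and 76.4, 69.6 and 68.3 FPKM with *Xbp1* siRNA. Its libraries did not overlap, and it fell by 0.59 on the log2 scale (standard error 0.053, limma adjusted p = 1.33e-04). *Dnaja1*, a farnesylated partner of cytosolic HSP70, had 41.7, 40.0 and 41.7 FPKM and then 30.7, 36.4 and 33.4 FPKM. It fell by 0.30 on the log2 scale (limma adjusted p = 0.00876), with the *Xbp1* siRNA libraries more spread than the controls, and at equal sums the log2 fold change was −0.16 (adjusted p = 0.0873).

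*Dnaja2*, *Dnajb1* and *Dnajb4* did not pass. *Dnajb1*, the heat-inducible HSP40, had 11.1, 11.2 and 12.5 FPKM and then 12.6, 12.9 and 13.4 FPKM, which is 0.16 on the log2 scale without overlap (limma adjusted p = 0.0974), and at equal sums it passed with 0.30 (adjusted p = 0.0138). *Dnaja2* had a 95% interval from −0.12 to 0.076, with 0.11 at equal sums, and *Dnajb4* one from −0.33 to −0.0068, with −0.035 at equal sums. The summed level of the 5 genes was 245 to 252 FPKM with control siRNA and 198 to 204 FPKM with *Xbp1* siRNA.

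The 3 HSP70 and HSP110 members of the cytosol did not pass the test. *Hspa8*, the constitutive HSC70 and the most abundant of the cytosolic members, had 376, 379 and 376 FPKM and then 357, 367 and 355 FPKM. The libraries did not overlap, but the log2 difference was −0.067 (95% interval −0.13 to −0.0036, limma adjusted p = 0.0875), and it was 0.068 at equal sums and 0.047 after quantile normalization. Against *Hspa8* in the same library, its lowered partners were lower as well. The ratio of *Dnajc7* to *Hspa8* was 0.292, 0.291 and 0.273 with control siRNA and 0.214, 0.190 and 0.192 with *Xbp1* siRNA. That of *Dnaja1* was 0.111, 0.106 and 0.111, and then 0.0858, 0.0993 and 0.0939. *Hspa4* and *Hsph1*, HSP110 proteins that recharge HSP70 with ATP, had intervals from −0.14 to 0.037 and from −0.15 to 0.0016, and both were above 0 at equal sums (0.085 and 0.061). Of the stress-inducible HSP70 genes, *Hspa1a* was listed at 0 in all 6 libraries. Of 10 other HSP70 genes and regulators tested, 2 rose, 2 fell and 6 did not pass. At equal sums 3 rose and 1 fell. At the deposited scale *Stub1* (0.49 on the log2 scale, limma adjusted p = 3.94e-04) and *Sgtb* (0.38, adjusted p = 0.0159) rose. *Bag5* (−0.21, adjusted p = 0.0114) and *Hspa2* fell. None of these genes overlapped between the siRNAs. They are no members and were named after their values were seen. *Hspa2*, another cytosolic HSP70, went from 18.7, 19.0 and 18.8 FPKM to 15.3, 11.9 and 14.5 FPKM (−0.45 on the log2 scale, limma adjusted p = 0.00758).

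The nucleotide exchange factors and other cofactors of HSP70 included 1 gene that fell. *Bag3*, an HSF1 target that joins HSP70 to HSPB8 in the clearance of misfolded protein, had 55.9, 54.7 and 50.4 FPKM with control siRNA and 37.4, 40.8 and 41.8 FPKM with *Xbp1* siRNA. It fell by 0.42 on the log2 scale (standard error 0.060, limma adjusted p = 0.00112), without overlap. Its partner *Hspb8* did not pass, at 174 ± 5.85 and 162 ± 5.62 FPKM (SD, n = 3), though its libraries did not overlap (170.3, 171 and 181 FPKM, then 156, 166 and 165 FPKM). The ratio of *Bag3* to *Hspb8* fell from 0.309 ± 0.0266 to 0.246 ± 0.00708 (SD, n = 3).

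*St13*, known as HIP, had 74.3, 73.5 and 75.9 FPKM and then 75.7, 82.2 and 85.1 FPKM, which overlap. On the log2 scale the difference was 0.12 (limma adjusted p = 0.0910), and it passed at equal sums (0.25), after quantile normalization (0.18) and without *Xbp1* siRNA replicate 1 (0.17). *Bag1* had a wide interval, from −0.53 to 0.025, around a log2 fold change of −0.25, which was −0.12 without control replicate 1 and at equal sums. *Bag2*, which inhibits the ubiquitin ligase CHIP, was the only member under 10 FPKM. From the steps of the values, it had 23, 16 and 12 reads without silencing and 20, 18 and 35 reads after it, which overlap (log2 fold change 0.36, 95% interval −0.31 to 1.02, and 0.15 without control replicate 3 or without *Xbp1* siRNA replicate 3 and 0.56 without control replicate 1). *Hspb1*, the small HSP that HSF1 induces, had 79.1 ± 6.31 and 76.8 ± 5.19 FPKM (SD, n = 3) and did not pass, and like *Hspb8* it was above 0 at equal sums (0.093 and 0.033).

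**Figure D3:**
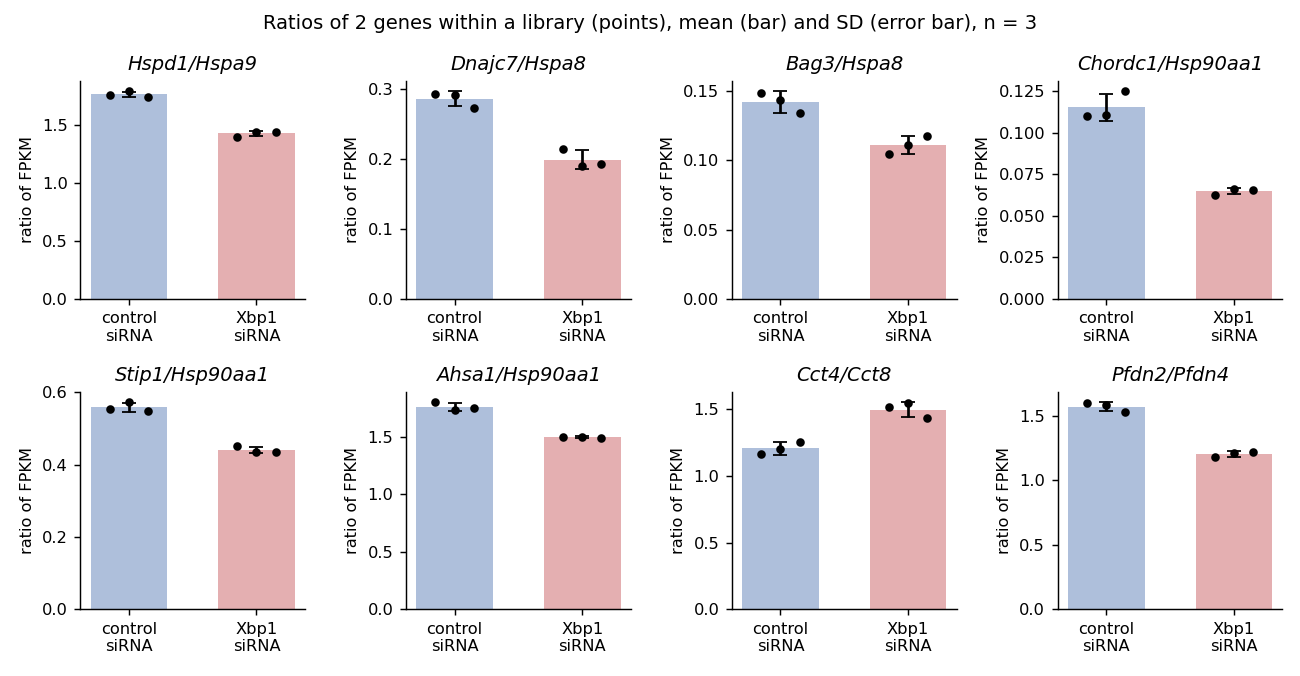
Ratio of the FPKM of 2 genes within the same library, with points for libraries, bars for means of 3 libraries and error bars for SD. The ratios of 8 pairs do not overlap between the siRNAs. Lower ones include Chordc1/Hsp90aa1 (0.115 to 0.0648) and Hspd1/Hspa9 (1.76 to 1.43), and Cct4/Cct8 is higher (1.20 to 1.49).

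TRiC is built from paralogous subunits, of which 7 are on the list. Their control means ranged from 118 FPKM for *Tcp1* to 295 FPKM for *Cct7*, in the order *Cct7*, *Cct3*, *Cct2*, *Cct4*, *Cct8*, *Cct5* and *Tcp1*, where *Cct8* and *Cct5* (130 ± 0.814 and 128 ± 3.79 FPKM) did not differ beyond their spread. Of these 7, *Cct4* alone passed the test at the deposited scale (14.3% higher, beside 24.1% of genes with at least 10 FPKM). It had 151, 156 and 161 FPKM with control siRNA and 175, 189 and 178 FPKM with *Xbp1* siRNA, higher by 0.21 on the log2 scale (standard error 0.042, limma adjusted p = 0.00605). The groups did not overlap, and *Cct4* passed as higher under each of the 16 alternatives run.

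The other 6 subunits had log2 fold changes between −0.097 (*Cct8*) and 0.067 (*Cct2*). The 95% intervals reached no further than −0.18 and 0.15. *Cct8* had 129.8, 131 and 129 FPKM and then 116, 123 and 125 FPKM, and *Cct2* had 213, 231 and 226 FPKM and then 235, 232 and 235 FPKM. Both genes were without overlap between the siRNAs, in opposite directions, and neither passed the test (limma adjusted p = 0.0695 and 0.183). At equal sums *Tcp1*, *Cct2*, *Cct3*, *Cct5* and *Cct7* passed as higher, with *Cct7* changing sign from −0.025 to 0.11, and after quantile normalization *Cct2*, *Cct3*, *Cct5* and *Cct7* did. With *Cct4*, this is 85.7% of the 7 subunits at equal sums and 71.4% after quantile normalization. Beside this, 40.7% and 29.6% of genes with at least 10 FPKM rose. *Cct6a*, the remaining core subunit, is no member and was named after its values were seen. It had 247, 241 and 251 FPKM and then 262, 272 and 265 FPKM, higher by 0.11 on the log2 scale (limma adjusted p = 0.0219) without overlap, but it did not pass without control replicate 2 (0.0820) or *Xbp1* siRNA replicate 2 (0.0742) or 3 (0.0581). The ratio of *Cct4* to *Cct8* was 1.16, 1.20 and 1.25 with control siRNA and 1.51, 1.54 and 1.43 with *Xbp1* siRNA. The summed level of the 7 subunits was 1284 to 1308 FPKM and 1316 to 1331 FPKM.

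The 3 prefoldin members did not move together. *Pfdn2* had 265, 275 and 277 FPKM and then 228, 242 and 225 FPKM, with a difference of −0.23 on the log2 scale and no overlap (limma adjusted p = 0.00199). It did not pass at equal sums (−0.098, adjusted p = 0.102) or after quantile normalization (−0.084, adjusted p = 0.154). *Pfdn4* went the other way, from 166, 173 and 181 FPKM to 193, 199 and 185 FPKM, which is 0.15 on the log2 scale, without overlap (limma adjusted p = 0.0273). It did not pass without control replicate 1 or 2 (adjusted p = 0.0721 in each fit) or without *Xbp1* siRNA replicate 1 (0.0734) or 2 (0.0878). The ratio of *Pfdn2* to *Pfdn4* fell from 1.57 ± 0.0341 to 1.20 ± 0.0210 (SD, n = 3) without overlap. *Pfdn1* did not pass, with an interval from −0.13 to 0.044 and a value of 0.092 at equal sums. The other subunits are no members and were named after their values were seen. *Vbp1* (prefoldin 3) had 84.7, 99.8 and 112 FPKM and then 66.7, 74.7 and 77.0 FPKM, a level of 73.7% of control (−0.43 on the log2 scale, limma adjusted p = 0.0121) without overlap, and it did not pass at equal sums (−0.30, adjusted p = 0.0580). *Pfdn5* (0.10, adjusted p = 0.0726) and *Pfdn6* (−0.12, adjusted p = 0.186, and −0.044 without control replicate 1) did not pass at the deposited scale, and *Pfdn5* passed as higher after quantile normalization (0.20) and at equal sums (0.24).

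*Hsf1* mRNA had 85.0, 85.9 and 85.6 FPKM with control siRNA and 95.3, 85.5 and 92.4 FPKM with *Xbp1* siRNA. *Xbp1* siRNA replicate 2 lay within the controls, and the log2 difference was 0.089 (95% interval −0.017 to 0.19, limma adjusted p = 0.160). Without *Xbp1* siRNA replicate 1 it was 0.055 (adjusted p = 0.394), without replicate 2 it was 0.13 (adjusted p = 0.0337), after quantile normalization 0.16 (adjusted p = 0.0260) and at equal sums 0.22 (adjusted p = 0.00508). Of 15 genes listed as heat-inducible targets of HSF1, 14 were tested, all of them members. *Hsp90aa1* rose, *Hspd1*, *Dnaja1*, *Bag3*, *Chordc1*, *Ahsa1* and *Stip1* fell, and 7 did not pass, with a median log2 fold change of −0.11. The 42.9% that fell and the 7.14% that rose stand beside 30.2% and 24.1% of genes with at least 10 FPKM. Among genes with at least 100 FPKM, a level that most of the 14 did not reach, 44.1% fell and 19.0% rose. At equal sums *Hsp90aa1* and *Dnajb1* rose (14.3%), *Hspd1*, *Bag3* and *Chordc1* fell (21.4%), and the median was 0.029. Genes with at least 10 FPKM then rose in 40.7% and fell in 18.8%, with a median of 0.11. At the deposited scale, no gene of this list had a log2 fold change above that of *Dnajb1*, 0.16.

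**Figure D4:**
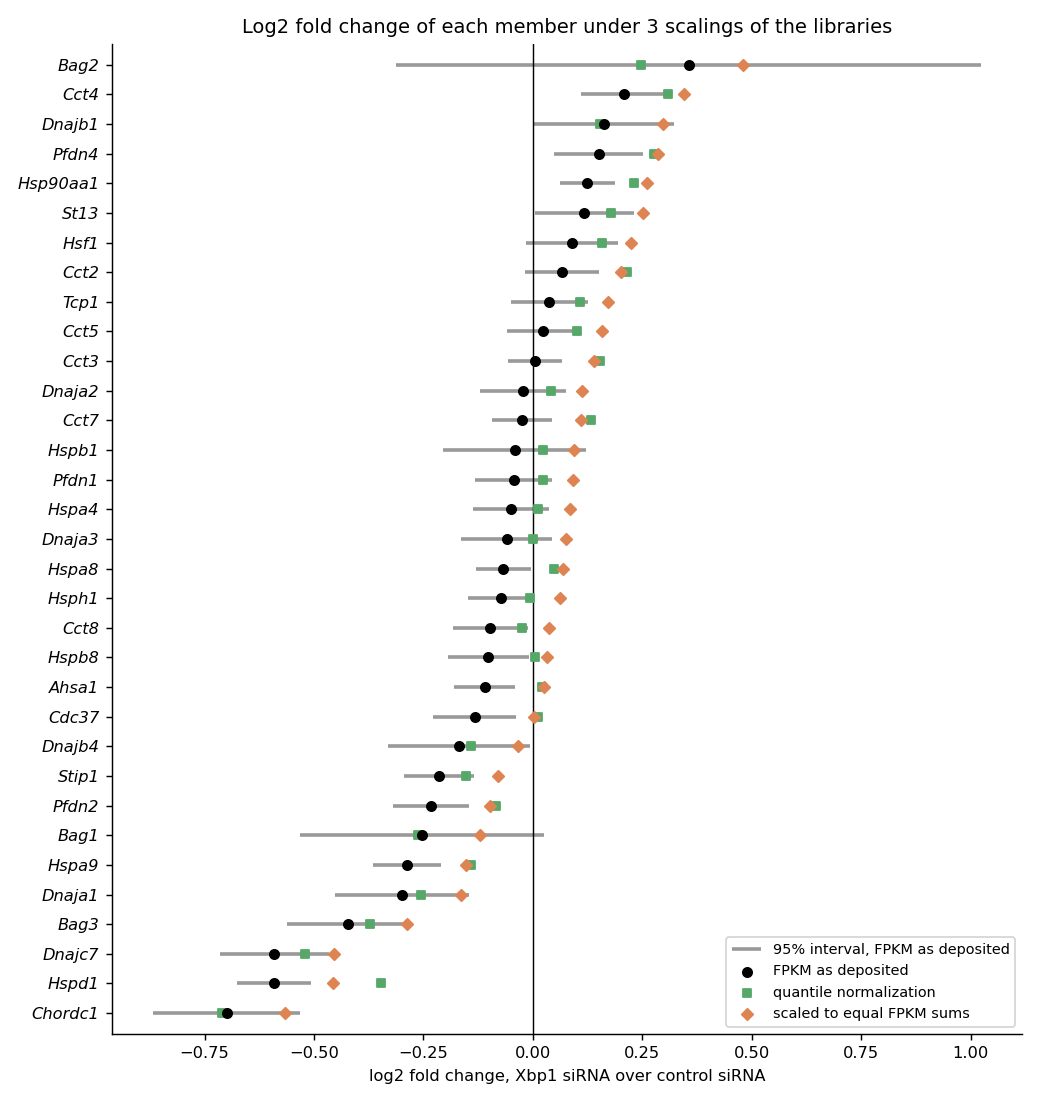
Log2 fold change (Xbp1 siRNA over control siRNA) of the 33 members with FPKM as deposited (circles, with 95% interval as grey lines), after quantile normalization (squares) and with libraries scaled to equal FPKM sums (diamonds). Chordc1, Hspd1, Dnajc7, Bag3 and Hspa9 lie under 0 with each, Cct4, Pfdn4 and Hsp90aa1 above 0 with each, and genes with values near 0 cross it.

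Across the deposited values, median-ratio scaling, quantile normalization and equal sums, *Hspd1*, *Hspa9*, *Chordc1*, *Dnajc7* and *Bag3* fell in each, and *Cct4*, *Pfdn4* and *Hsp90aa1* rose in each. The increases were larger after quantile normalization (0.31, 0.28 and 0.23 on the log2 scale) and at equal sums (0.34, 0.29 and 0.26). A further 12 members did not pass in any of them, and the calls of 13 differed. With a library left out, the values of *Tcp1*, *Cct2*, *Cct3*, *Cct5*, *Cct7*, *Pfdn1*, *Hspa4*, *Dnaja2*, *Dnaja3* and *Hspb1* stayed between −0.093 and 0.091 and none of them passed.

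Chaperone genes outside the list were taken from lists drawn up by role, of which 75 genes were tested. Of these, 16 rose and 18 fell, which is 21.3% and 24.0%, with a median log2 fold change of 0.0067 at the deposited scale. Over all genes tested 20.2% rose and 20.2% fell, and among those with at least 10 FPKM 24.1% and 30.2% did. After quantile normalization 21 rose and 16 fell, and at equal sums 28 rose and 11 fell. Of those that passed, the decreases of at least 0.5 on the log2 scale were *Fkbp5* (−0.82), an immunophilin of HSP90 and steroid receptors, *Cacybp* (−0.67), which binds HSP90 and the ubiquitin ligase SIAH1, *Pdcl3* (−0.65), a phosducin-like partner of TRiC, *Dnajc27* (−0.58) and *Hsf2* (−0.52). *Fkbp5* had 33.8, 34.6 and 32.3 FPKM and then 19.4, 19.2 and 18.3 FPKM (limma adjusted p = 2.14e-05). *Cacybp* had 178, 205 and 192 FPKM and then 115, 125 and 121 FPKM (limma adjusted p = 1.02e-04). *Hsf2*, a second heat shock factor, had 25.8, 27.6 and 27.0 FPKM and then 18.6, 18.0 and 19.5 FPKM (limma adjusted p = 2.42e-04). *Pdcl3* went from 49.4 ± 4.29 to 31.3 ± 1.86 FPKM and *Dnajc27* from 3.96 ± 0.633 to 2.61 ± 0.331 FPKM (SD, n = 3). None of these 5 genes overlapped between the siRNAs. *Dnajc27* did not pass at equal sums (limma adjusted p = 0.0562) or in some fits with a library left out (0.0521 to 0.0705).

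*Cryab*, the small HSP αB-crystallin, was the only gene of these lists to rise by that much (2.26 on the log2 scale, limma adjusted p = 0.0403). The pseudocount sets this value, which was 0.66 (adjusted p = 0.0803) with a pseudocount of 1 and 4.38 with 0.01, and eBayes without trend gave an adjusted p of 0.0738. It rests on few reads, 1, 0 and 0 without silencing and 9, 1 and 4 after it. The ratio at equal depth was 12.9 with an exact 95% interval of 1.96 to 546, which covers counting error only. Its adjusted p rose to between 0.10 and 0.125 when control replicate 2, control replicate 3, *Xbp1* siRNA replicate 1 or *Xbp1* siRNA replicate 3 was left out. *Hspb2*, *Hspb3* and *Hsbp1l1*, like *Hspa1a*, were listed at 0 in each library.

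**Figure D5:**
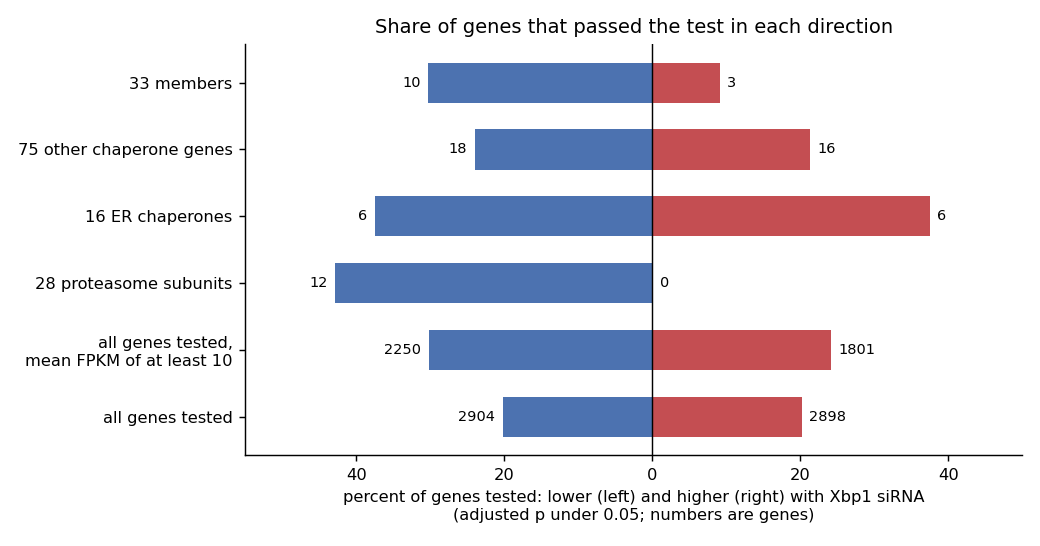
Percent of the genes tested that fell (left, blue) and rose (right, red) with Xbp1 siRNA at an adjusted p under 0.05, for 33 members, 75 other chaperone genes, 16 ER chaperones, 28 proteasome subunits and all genes. Members fell in 30.3% and rose in 9.09%, where genes with a mean of at least 10 FPKM fell in 30.2% and rose in 24.1%.

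ER chaperones and folding enzymes, the class of genes that XBP1 is known to raise, were split at the deposited scale. Of 16, 6 were higher and 6 lower (37.5% each), beside 24.1% and 30.2% of genes with at least 10 FPKM, with a median log2 fold change of 0.060. At equal sums 10 were higher (62.5%) and 3 lower (18.8%), beside 40.7% and 18.8%. *Creld2*, an ER isomerase, was beyond 0.5, with 0.53 on the log2 scale (limma adjusted p = 2.38e-05). Of 28 proteasome subunits tested, 12 fell (42.9%) and 16 did not pass (median −0.14). Beside this, 30.2% of genes with at least 10 FPKM and 44.1% of those with at least 100 FPKM fell. At equal sums 3 subunits rose (10.7%) and 6 fell (21.4%), beside 40.7% and 18.8% of genes with at least 10 FPKM. Differences between these lists and the members were not tested.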

How the data were processed

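RNA-Seq libraries (TruSeq stranded mRNA, Illumina HiSeq) were sequenced from 3 control siRNA and 3 *Xbp1* siRNA samples. The authors deposited FPKM per gene for each library. The submitters' processing notes name HISAT2 2.1.0 and Cuffdiff 2.2.1. The genome build and annotation are not given in the sources used here. The DESeq2 test of the study needs counts and was not used on FPKM. Genes with a mean of at least 0.1 FPKM (14361) were tested on log2(FPKM + 0.1) with limma 3.58.1 (R 4.3.3; eBayes with trend; Benjamini-Hochberg adjustment). A pseudocount understates changes of low genes. The script was tested on simulated data. Whole reads behind low genes, and relative depths, were read from the steps of the values (tolerance 0.03 reads), which cover counting error only. Same-numbered libraries did not deviate together (correlations −0.029, −0.027 and −0.012), so replicate numbers were not used as pairs. Members and lists were chosen with earlier results of these data known. Named were *Xbp1*, each member in the files, and genes of the other lists that passed with a log2 fold change of at least 0.5 or were listed at 0 in all libraries. Cell type markers are outside this rule: the mesenchymal and granulosa markers found in the files are each named, and the other marker lists are given as sums. A few genes of the other lists were named after their values were seen, as said beside them. Alternatives were pseudocounts, filters, scalings, eBayes without trend, a replicate block, summed repeated symbols and leaving out each library. Equal sums and the ratios between genes were added after the data were seen. A promoter search was not run, since no promoter sequences were used here.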

Additional observations from a re-analysis of the deposited data

How the results depend on the processing

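Of the members, *Cct4* rose and *Dnajc7*, *Bag3*, *Chordc1*, *Hspa9* and *Hspd1* fell in the values as reported and in the 16 alternatives, 12 members did not pass in any, and the calls of 15 differed. The count of members that rose was 3, and it was 11 at equal sums, 9 after quantile normalization, 1 with eBayes without trend and 2 to 3 when each library was left out. The count that fell was 10, and it was 5 at equal sums and 8 to 10 with a library left out. The median log2 fold change of the members (−0.060) was 0.075 at equal sums, 0.022 after quantile normalization and −0.073 to −0.053 with a library left out. No member reached 2-fold in any setting. The replicate block gave 3 members higher and 10 lower and changed no member's call, and of the other genes named it changed those of *Clpp* (adjusted p = 0.0579) and *Lonp1* (0.0276).

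At equal sums the log2 fold change changed sign for *Ahsa1* (0.025), *Cct7* (0.11), *Cct8* (0.038), *Cdc37* (0.0022), *Dnaja2* (0.11), *Dnaja3* (0.075), *Hspa4* (0.085), *Hspa8* (0.068), *Hspb1* (0.093), *Hspb8* (0.033), *Hsph1* (0.061), *Pfdn1* (0.092), *Pfdn6* (0.013) and *Lonp1* (0.013). After quantile normalization it did for *Ahsa1* (0.022), *Cct7* (0.13), *Cdc37* (0.011), *Dnaja2* (0.041), *Hspa4* (0.012), *Hspa8* (0.047), *Hspb1* (0.023), *Hspb8* (0.0056), *Pfdn1* (0.022), *Pfdn6* (0.023) and *Lonp1* (0.032). With each library left out, values ranged from −0.0012 to 0.012 for *Cct3*, from −0.0016 to 0.038 for *Cct5* and from −0.093 to 0.023 for *Hspb1*. The cause was not tested. eBayes without trend gave adjusted p-values (limma) of 0.0941 for *Ahsa1*, 0.110 for *Cdc37*, 0.0904 for *Pfdn4*, 0.0962 for *Cct6a*, 0.118 for *Clpp*, 0.0653 for *Dnlz* and 0.0793 for *Fkbp4*. *Dnajc27* was at 0.0521 to 0.0705 at equal sums and when control replicate 2, control replicate 3, *Xbp1* siRNA replicate 1 or *Xbp1* siRNA replicate 3 was left out. Over all genes, 2898 rose and 2904 fell, and at equal sums 4555 and 1869. Past 2-fold these counts were 386 and 359, and 114 and 205 with a pseudocount of 1, and 242 rose with a filter at 1 FPKM. Depth limits *Bag2* and *Cryab*, which rest on few reads.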
